A study of Mus musculus with 17 samples.

Results

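The small leucine-rich proteoglycans (SLRPs) are secreted matrix proteins, and 9 of their genes (*Dcn*, *Bgn*, *Aspn*, *Lum*, *Fmod*, *Prelp*, *Omd*, *Ogn* and *Podn*) were followed by symbol in a table of 31053 genes. Their levels were measured by bulk RNA-seq in 17 libraries of cardiac fibroblasts (CFs) from infarcted mouse hearts. All libraries came from C57BL/6 mice aged 8 to 10 weeks that carried the *Collagen1α1-GFP* transgene, in which the promoter of a collagen I gene drives GFP. Each heart had been infarcted by tying off the left anterior descending coronary artery, and GFP+/CD31-/CD45- cells were sorted, so that cells bearing endothelial CD31 or leukocyte CD45 were left out. There were 3 libraries at each of 1, 2, 4 and 6 days post-infarction (dpi), 4 at 3 dpi and 1 at 5 dpi, and uninfarcted hearts were not analysed here.

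SLRPs share a core of leucine-rich repeats, and most bind fibrillar collagen and set how fibrils assemble, space and cross-link. Many carry chondroitin, dermatan or keratan sulfate chains, and several also bind growth factors of the TGF-β family. By sequence and gene structure they are grouped into class I (*Dcn*, *Bgn*, *Aspn*), class II (*Lum*, *Fmod*, *Prelp*, *Omd*), class III (*Ogn*) and a more distant class with *Podn*. In the heart, fibroblasts are a main source of decorin, biglycan, lumican and osteoglycin, and these proteins are part of the scar.

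Library totals ranged from 8021815 to 22029938 counts with a median of 14123952, and the 9 genes together held 0.721 to 2.13% of the counts of a library. A count of 3, taken as the floor, corresponded to 0.136 to 0.374 CPM, the counts scaled to a common library size. All 7 fibroblast markers had counts on every day, with sums of 6014 to 33028 CPM. The leukocyte list summed to 37.5 to 162 CPM at 3 dpi and 51.1 CPM at 5 dpi against at most 31.4 CPM on the other days, with 6 of 7 genes detected at 3 dpi and *Cd3e* at 0 on every day. The cardiomyocyte list summed to 31.4 to 52.1 CPM at 4 dpi (5 of 6 genes, *Ryr2* at 0) and to 65.5 to 133 CPM at 6 dpi (6 of 6 genes), against at most 23.5 CPM on the other days. The mesothelial list reached 599 CPM in 6 dpi replicate 2 and at most 205 CPM elsewhere. *Xist* was at 85.7 to 252 CPM in the 4 and 6 dpi libraries, whereas the 2, 3 and 5 dpi libraries held 42.8 to 71.7 CPM of Y-linked transcripts, so the 4 dpi and 3 dpi libraries also differed in sex-linked genes. The 3 dpi libraries were named by another scheme than the rest, which cannot be told apart from the day. How far these differences enter the results was not tested, and in bulk samples fewer cells of a type and less RNA per cell cannot be told apart.

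Whether each gene differed between any of the 6 days was asked first. Over the time course, 7 of the 9 SLRP genes passed the test of edgeR, which models counts with a quasi-likelihood spread, at an adjusted p under 0.05. Across all 14030 genes tested, 15.0% passed. The smallest adjusted p was that of *Fmod* at 8.7e-08. It was followed by *Ogn* at 0.00088, *Aspn* at 0.0021, *Lum* at 0.004, *Bgn* at 0.0061, *Prelp* at 0.021 and *Podn* at 0.033. *Omd* (adjusted p = 0.079) and *Dcn* (0.21) did not pass. *Omd* did pass with DESeq2 (0.015), with every gene with a count (1.3e-05) and without 6 dpi replicate 3 (0.0096). Levels below are in log2 CPM, with a prior count of 2. Fold changes and the differences tested are log2 values fitted by edgeR or, where named, DESeq2, and can depart from differences of mean levels. Gaps between days in the order of day means are differences of mean levels. Because reads came from 3′ ends and differ in yield between genes, levels are compared between days within a gene and not between genes.

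**Figure D1:**
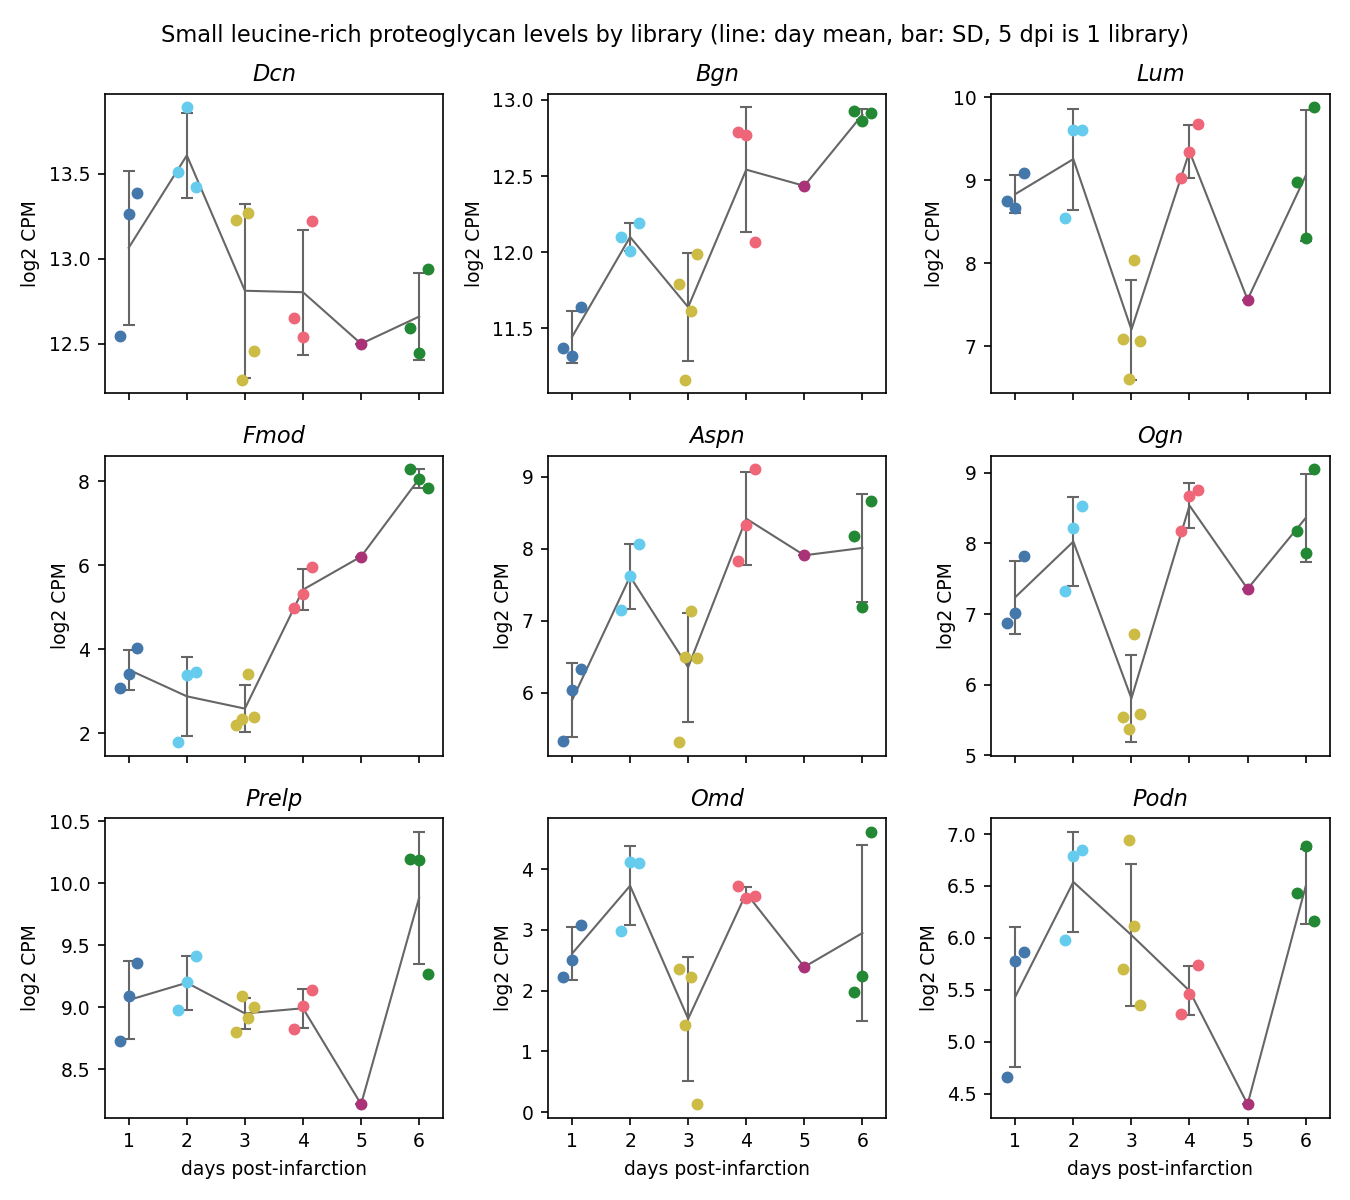
Levels of the 9 SLRP genes in log2 CPM by day post-infarction, 1 panel per gene with its own axis, with 1 point per library, the line through day means and bars for the SD between libraries (none at 5 dpi, which has 1 library). *Fmod* lies between 1.79 and 4.03 up to 3 dpi and between 7.85 and 8.29 at 6 dpi, while *Lum* and *Ogn* have their lowest day means at 3 dpi.

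Between consecutive days the called SLRP genes were lower at 3 dpi than at 2 dpi, and higher at 4 dpi than at 3 dpi. From 1 to 2 dpi, 0 of the 9 passed edgeR's test, where 0.178% of all genes did. In that comparison 3 of the 9 had an unadjusted p under 0.05, and DESeq2 called 1, *Aspn*. From 2 to 3 dpi, 3 of the 9 passed (*Ogn*, *Omd* and *Lum*) against 2.94% of all genes, and all 3 were lower at 3 dpi. All 9 fold changes of this step were negative, with a median of -0.74 against 0.04 over all genes. From 3 to 4 dpi, 4 of the 9 passed (*Fmod*, *Ogn*, *Lum* and *Aspn*) against 2.71% of all genes, and all 4 were higher at 4 dpi. The median fold change of the 9 at this step was 1.87 against -0.03 over all genes. From 4 to 6 dpi only *Fmod* passed, 1 of 9 against 0.513% of all genes.

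Set over longer spans, the called SLRP genes were higher at 6 dpi, both against 1 dpi and against the window of 3 to 5 dpi in which the study places a transition of CFs. From 1 to 6 dpi, 4 of the 9 passed (*Fmod*, *Aspn*, *Bgn* and *Prelp*), all higher, against 12.1% of all genes. *Ogn* (1.15, SE 0.40, adjusted p = 0.066) and *Podn* (1.00, SE 0.38, adjusted p = 0.087) did not pass edgeR's test at this span, and DESeq2 called both (adjusted p = 0.022 and 0.044). When the window (the average of its 3 days) was set against the average of 1 and 2 dpi, 2 of the 9 passed against 7.48% of all genes, *Fmod* higher and *Lum* lower. At 6 dpi against that window, 5 of the 9 passed (*Fmod*, *Prelp*, *Podn*, *Ogn* and *Lum*), all higher, against 11.5% of all genes. These comparisons share libraries and are not independent of one another. Sex-linked genes also differed between 1 and 6 dpi and between 6 dpi and the 3 and 5 dpi libraries, and their part was not tested. The single 5 dpi library has the same weight in the window as the 4 libraries of 3 dpi.

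**Figure D2:**
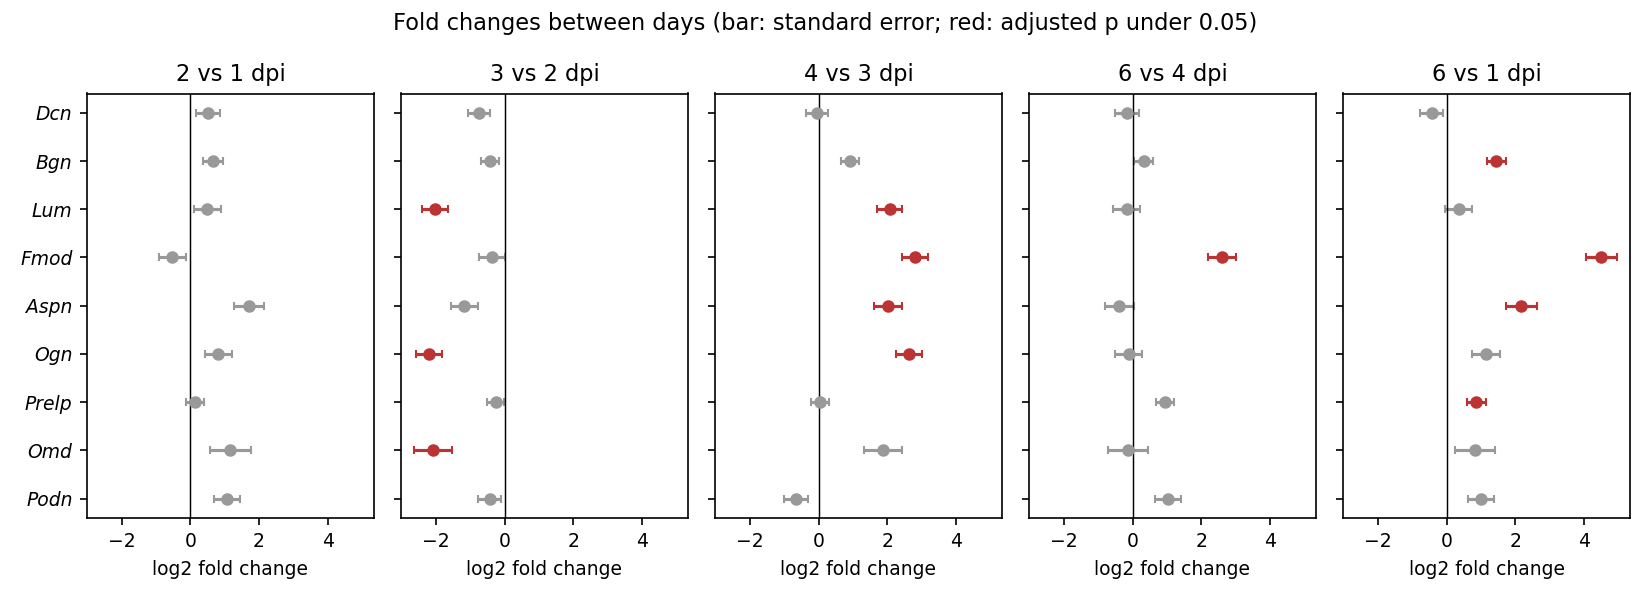
Log2 fold changes of the 9 SLRP genes for 5 pairs of days, with the standard error of the model as the bar, red where the adjusted p of edgeR's test over 14030 genes is under 0.05 and grey elsewhere. All 9 points lie left of 0 for 3 against 2 dpi, and *Fmod* lies farthest right for 6 against 1 dpi, at 4.52.

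Fibromodulin (*Fmod*), a class II member that binds collagen and guides its cross-linking by lysyl oxidase, showed the largest change of the 9. Its level was 3.09, 3.42 and 4.03 in the 1 dpi libraries, 1.79, 3.38 and 3.47 at 2 dpi, and 2.19, 2.34, 3.42 and 2.39 at 3 dpi. It was 4.99, 5.31 and 5.96 at 4 dpi, 6.21 in the 5 dpi library, and 8.29, 8.06 and 7.85 at 6 dpi. The libraries of the first days overlapped each other, every later library lay above all of them, and the 6 dpi libraries lay above all others. In counts, *Fmod* went from 48 to 142 per library at 3 dpi to 2993 to 4836 at 6 dpi. It was 7.05-fold higher at 4 than at 3 dpi (log2 fold change 2.82, SE 0.38, adjusted p = 0.00046, edgeR) and 6.08-fold higher at 6 than at 4 dpi (2.60, SE 0.41, adjusted p = 0.008). From 1 to 6 dpi the difference was 22.9-fold (4.52, SE 0.45, adjusted p = 4.7e-06).

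The rise of *Fmod* from 1 to 6 dpi and from 3 to 4 dpi passed the test whichever library was left out. That from 4 to 6 dpi, in which libraries of both days carried *Xist*, did not pass without 4 dpi replicate 1 (2.41, adjusted p = 0.11) or 4 dpi replicate 2 (2.53, adjusted p = 0.12). *Fmod* was also higher in the window of 3 to 5 dpi than at 1 and 2 dpi (1.48, SE 0.29, adjusted p = 0.0022), although its 3 dpi mean of 2.58 was the lowest of its day means. Without the 5 dpi library that difference was 0.77 (adjusted p = 0.11). The summed cardiomyocyte markers were higher at 4 and at 6 dpi than at 1 to 3 dpi, as was *Fmod*, but stood at 9.16 CPM in the 5 dpi library, where *Fmod* was at 6.21. The mural list, with 6 of 6 genes detected on each day, summed to 43.8 to 77.1 CPM at 1 and 2 dpi, 86.2 to 118 at 3 dpi, 86.7 to 151 at 4 dpi, 209 at 5 dpi and 131 to 184 at 6 dpi. The part of either list in the result was not tested.

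The 250 bases before the RefSeq start of *Fmod*, the gene with the largest change, are shown in lower case on the gene's strand in GRCm38.p6 (chr1:134037004-134037253).
*Fmod*: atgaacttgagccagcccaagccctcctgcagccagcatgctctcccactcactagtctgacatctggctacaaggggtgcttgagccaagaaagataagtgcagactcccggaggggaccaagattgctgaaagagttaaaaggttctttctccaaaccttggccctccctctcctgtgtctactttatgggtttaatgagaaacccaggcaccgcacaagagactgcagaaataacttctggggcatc

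Lumican (*Lum*), a keratan sulfate proteoglycan that limits the width of collagen fibrils, and osteoglycin (*Ogn*), also called mimecan, followed each other closely, both with a low at 3 dpi. *Ogn* was at 6.88, 7.01 and 7.83 at 1 dpi, 7.33, 8.22 and 8.54 at 2 dpi, and 5.55, 5.37, 6.72 and 5.58 at 3 dpi. It stood at 8.17, 8.68 and 8.76 at 4 dpi, 7.36 in the 5 dpi library, and 8.17, 7.86 and 9.05 at 6 dpi. All 3 dpi libraries of *Ogn* lay below every other library of the series. *Ogn* fell by 2.20 from 2 to 3 dpi (SE 0.37, adjusted p = 0.004, edgeR) and rose by 2.64 from 3 to 4 dpi (SE 0.38, adjusted p = 0.00084), a 6.25-fold difference. Both calls passed whichever library was left out.

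*Lum* was at 8.74, 8.66 and 9.09 at 1 dpi, 8.55, 9.60 and 9.61 at 2 dpi, and 7.09, 6.60, 8.04 and 7.07 at 3 dpi. It stood at 9.02, 9.34 and 9.67 at 4 dpi, 7.56 at 5 dpi, and 8.97, 8.30 and 9.88 at 6 dpi. Its 3 dpi and 5 dpi libraries lay below all libraries of the other days. *Lum* fell by 2.03 from 2 to 3 dpi (SE 0.37, adjusted p = 0.0061, edgeR) and rose by 2.07 from 3 to 4 dpi (SE 0.37, adjusted p = 0.0058), 4.20-fold. Without 2 dpi replicate 2 the first difference was -1.87 (adjusted p = 0.052).

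Osteomodulin (*Omd*), a keratan sulfate SLRP known best from bone, had low counts, from 9 to 322 per library. Its level was 2.23, 2.51 and 3.08 at 1 dpi, 2.97, 4.11 and 4.09 at 2 dpi, and 2.35, 1.44, 2.22 and 0.13 at 3 dpi. It was 3.72, 3.52 and 3.56 at 4 dpi, 2.39 at 5 dpi, and 1.98, 2.25 and 4.61 at 6 dpi. The 3 dpi libraries lay below those of 2 and of 4 dpi, while the 6 dpi libraries spread from 1.98 to 4.61, the highest level of the series. *Omd* fell by 2.08 from 2 to 3 dpi (SE 0.56, adjusted p = 0.047, edgeR), and this call passed in only 4 of the 16 fits that left out 1 library. It did not pass with 2 dpi replicate 2 or 3, or any one library of 1, 3 or 4 dpi, left out, with an adjusted p of up to 0.18. Nor did it pass with the replicate block (-1.75, adjusted p = 0.1) or in the fit of the 2 and 3 dpi libraries alone (-2.09, adjusted p = 0.059). Its difference from 3 to 4 dpi was 1.87 (SE 0.56, adjusted p = 0.078), and this passed without 6 dpi replicate 3 (adjusted p = 0.02).

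The 2 and 3 dpi libraries both carried Y-linked transcripts, with *Xist* at 1.81 to 2.73 CPM at 2 dpi and at most 0.161 CPM at 3 dpi. The naming scheme and the leukocyte sum differed between these days, and the part of either in the fall was not tested. For the rise from 3 to 4 dpi, day, sex-linked pattern and naming scheme cannot be told apart. The leukocyte list was higher at 3 and 5 dpi, the days at which *Lum* was lowest. Over the time course, neither *Lum* (adjusted p = 0.16, edgeR) nor *Ogn* (0.087) passed when the 3 dpi libraries were left out. At 6 dpi against the window of 3 to 5 dpi, *Ogn* was higher by 1.18 (SE 0.34, adjusted p = 0.032) and *Lum* by 1.12 (SE 0.34, adjusted p = 0.039). Without the 3 dpi libraries these differences were 0.50 (adjusted p = 0.42) and 0.74 (0.22). Without 6 dpi replicate 3, the library with the highest *Lum* and *Ogn*, they were 0.75 (0.16) and 0.60 (0.24). The call of *Ogn* was also lost without 4 dpi replicate 1 or without 6 dpi replicate 1 or 2 (adjusted p 0.052 to 0.067), and that of *Lum* without the 5 dpi library, 3 dpi replicate 1 or 4, 4 dpi replicate 1 or 2, or 6 dpi replicate 1 (0.054 to 0.083). *Lum* was lower in the window than at 1 and 2 dpi (-1.01, SE 0.29, adjusted p = 0.039), a call that passed in 7 of the 16 fits without 1 library. It was lost without any one library of 1 dpi, 2 dpi replicate 2 or 3, 3 dpi replicate 1 or 4, or 4 dpi replicate 1 or 2 (adjusted p 0.052 to 0.09), and the difference was -0.75 (0.11) without the 5 dpi library and -0.65 (0.27) without the 3 dpi libraries.

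Asporin (*Aspn*), a class I member that carries no glycosaminoglycan chain and binds collagen and TGF-β, was low at 1 and 3 dpi. Its level was 5.32, 6.03 and 6.32 at 1 dpi, 7.15, 7.63 and 8.06 at 2 dpi, and 5.31, 6.49, 7.13 and 6.48 at 3 dpi. It was 7.83, 8.32 and 9.10 at 4 dpi, 7.91 at 5 dpi, and 8.18, 7.19 and 8.66 at 6 dpi. The 4 and 6 dpi libraries all lay above those of 1 and 3 dpi and overlapped those of 2 dpi. *Aspn* was 4.53-fold higher at 6 than at 1 dpi (2.18, SE 0.45, adjusted p = 0.0038, edgeR) and 4.08-fold higher at 4 than at 3 dpi (2.03, SE 0.40, adjusted p = 0.0099). The latter was 1.60 (adjusted p = 0.053) without 4 dpi replicate 3, the highest library, and 2.03 with an adjusted p of 0.054 in a fit of the 3 and 4 dpi libraries alone. Its difference from 1 to 2 dpi was 1.71 (SE 0.44, adjusted p = 0.19), with no overlap between the libraries of these days.

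*Aspn*, *Omd* and *Ogn* are neighbours on the same strand of chromosome 13, at chr13:49544443-49567565, chr13:49582462-49592822 and chr13:49608046-49624501 in GRCm38. The gaps between them are 14896 and 15223 bases, with no whole protein-coding gene inside. All 3 had a negative fold change from 2 to 3 dpi and a positive one from 3 to 4 dpi, although *Aspn* (-1.17, adjusted p = 0.11, edgeR) did not pass at the first step and *Omd* not at the second. DESeq2 called both, *Aspn* at -1.16 (adjusted p = 0.049) and *Omd* at 1.87 (adjusted p = 0.023). The gene *Cenpp* spans all 3 on the opposite strand, at 0 to 188 counts, and shares 7 exonic bases with *Aspn*. Since the strand setting of the counting is not given in the sources used here, reads in those bases cannot be assigned. The 250 bases before the RefSeq starts of the 3 neighbours are shown, on the gene's strand in GRCm38.p6, because these genes lie side by side. Their signs at both steps were not particular to them, since 7 of the 9 SLRP genes, all but *Dcn* and *Podn*, had them. Capitals mark matches to the TATA box TATAAA or the TEAD site GGAATG.
*Aspn* (chr13:49544193-49544442): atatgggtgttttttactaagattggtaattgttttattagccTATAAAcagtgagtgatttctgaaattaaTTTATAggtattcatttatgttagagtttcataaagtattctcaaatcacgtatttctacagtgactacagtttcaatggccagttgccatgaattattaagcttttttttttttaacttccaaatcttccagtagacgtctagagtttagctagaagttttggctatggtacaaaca
*Omd* (chr13:49582212-49582461): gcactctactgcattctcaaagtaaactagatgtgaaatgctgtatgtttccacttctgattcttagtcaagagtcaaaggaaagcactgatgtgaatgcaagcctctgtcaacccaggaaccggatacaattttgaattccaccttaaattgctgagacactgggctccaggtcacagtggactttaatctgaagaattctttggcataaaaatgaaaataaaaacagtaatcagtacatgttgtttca
*Ogn* (chr13:49607765-49608014): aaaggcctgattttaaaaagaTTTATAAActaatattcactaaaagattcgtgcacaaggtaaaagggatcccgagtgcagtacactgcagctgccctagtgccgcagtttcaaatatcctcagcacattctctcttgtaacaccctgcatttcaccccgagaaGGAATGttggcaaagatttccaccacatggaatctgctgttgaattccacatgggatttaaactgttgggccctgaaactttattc

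These windows were searched on both strands for the TATA box TATAAA, the AP-1 site TGANTCA, the TEAD site GGAATG and the SMAD element CAGACA. Before *Aspn*, TATAAA begins at -207 on the gene's strand and at -178 on the opposite strand. Before *Ogn* it is found at -227 on the gene's strand and at -229 on the opposite strand, and these matches overlap, while GGAATG begins at -86. The windows of *Omd* and *Fmod* hold none of the 4 motifs, and neither do those of *Bgn*, *Prelp* and *Podn*. Of 32817 RefSeq promoters of this length, 12.4% hold TATAAA, 6.75% TGANTCA, 12.6% GGAATG and 17.1% CAGACA. The RefSeq table matched 7 of the 9 genes, all but *Dcn* and *Lum*. A match describes letters and is no evidence of binding.

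Biglycan (*Bgn*), a chondroitin and dermatan sulfate proteoglycan that in soluble form also signals through Toll-like receptors, was higher late in the series. Its level was 11.37, 11.32 and 11.64 at 1 dpi, 12.10, 12.01 and 12.19 at 2 dpi, and 11.79, 11.16, 11.62 and 11.99 at 3 dpi. It was 12.79, 12.77 and 12.07 at 4 dpi, 12.44 at 5 dpi, and 12.93, 12.86 and 12.92 at 6 dpi. The 6 dpi libraries were the highest of the series and lay close together. *Bgn* was 2.74-fold higher at 6 than at 1 dpi (1.45, SE 0.29, adjusted p = 0.003, edgeR), and this passed under every alternative run, each single library left out included. Its differences between consecutive days did not pass edgeR's test, the largest being 0.91 from 3 to 4 dpi (SE 0.26, adjusted p = 0.07). DESeq2 called that step (0.89, adjusted p = 0.0032), as did edgeR without 4 dpi replicate 3 (1.10, adjusted p = 0.036). At 6 dpi against the window of 3 to 5 dpi, the difference of 0.68 did not pass edgeR's test. DESeq2 called it (0.70, adjusted p = 0.0082). So did edgeR without the 5 dpi library (0.78, adjusted p = 0.03) or without 3 dpi replicate 2 (0.63, adjusted p = 0.034). *Bgn* lies on the X chromosome, and *Xist*, which was high at 4 and 6 dpi, stood at 211, 19.0 and 3.08 CPM in the 1 dpi libraries. The part of this difference in the *Bgn* levels was not tested.

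Decorin (*Dcn*), the class I member that binds collagen and TGF-β, passed edgeR's test in no comparison, while DESeq2 called it lower in the window of 3 to 5 dpi than at 1 and 2 dpi. Its level was 12.55, 13.26 and 13.39 at 1 dpi, 13.51, 13.89 and 13.42 at 2 dpi, and 13.23, 12.29, 13.27 and 12.46 at 3 dpi. It was 12.65, 12.54 and 13.22 at 4 dpi, 12.50 at 5 dpi, and 12.60, 12.44 and 12.94 at 6 dpi. The libraries of 2 dpi lay above all others, and those of the remaining days overlapped. Day means ranged from 12.50 to 13.61, the narrowest range of the 9, at 1.11. In the window against 1 and 2 dpi the difference was -0.63 (SE 0.25, adjusted p = 0.14) by edgeR and -0.62 (adjusted p = 0.044) by DESeq2. The difference from 1 to 6 dpi was -0.43 (SE 0.34, adjusted p = 0.43, edgeR) and that from 2 to 3 dpi -0.74 (SE 0.32, adjusted p = 0.21), and a p that misses the threshold does not show that levels were alike.

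*Prelp*, a class II member with a basic amino-terminal stretch that binds heparan sulfate, had overlapping levels up to 4 dpi and was higher at 6 dpi than in the window of 3 to 5 dpi. Its level was 8.73, 9.09 and 9.36 at 1 dpi, 8.98, 9.20 and 9.42 at 2 dpi, and 8.80, 9.09, 8.91 and 9.0 at 3 dpi. It was 8.83, 9.01 and 9.14 at 4 dpi, 8.22 at 5 dpi, and 10.20, 10.19 and 9.27 at 6 dpi. Replicates 1 and 2 of 6 dpi lay apart from all other libraries, and replicate 3 lay among those of 1 and 2 dpi. At 6 dpi against the window of 3 to 5 dpi *Prelp* was 2.33-fold higher (1.22, SE 0.23, adjusted p = 0.0036, edgeR), which passed whichever library was left out. Against 1 dpi it was higher by 0.86 (SE 0.27, adjusted p = 0.044), which passed in 3 of 16 fits without 1 library (those without 3 dpi replicate 2, 4 dpi replicate 3 or 6 dpi replicate 3). Over the other 13 fits the adjusted p was 0.052 to 0.18. With the replicate block it was 0.064, with every gene with a count 0.076 and with only the days compared 0.085. Its time-course p was 0.13 without 6 dpi replicate 1, 0.12 without 6 dpi replicate 2 and 0.057 with the replicate block. Against 4 dpi, *Prelp* did not pass edgeR's test (0.95, SE 0.27, adjusted p = 0.088), and DESeq2 called it (0.98, adjusted p = 0.0091). An antisense gene shares 350 exonic bases with *Prelp* and had 0 or 1 count per library.

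Podocan (*Podn*), a collagen-binding SLRP known from kidney and vessel wall, had its lowest level in the single 5 dpi library, as had *Prelp*. Its level was 4.66, 5.78 and 5.86 at 1 dpi, 5.98, 6.79 and 6.85 at 2 dpi, and 5.70, 6.94, 6.11 and 5.35 at 3 dpi. It was 5.27, 5.46 and 5.74 at 4 dpi, 4.40 at 5 dpi, and 6.44, 6.89 and 6.17 at 6 dpi. The 6 dpi libraries lay above those of 4 and 5 dpi and overlapped those of 2 and 3 dpi. *Podn* was 2.26-fold higher at 6 dpi than in the window (1.18, SE 0.32, adjusted p = 0.024, edgeR). Without the 5 dpi library this difference was 0.70 (adjusted p = 0.13), without 6 dpi replicate 1 1.22 (0.07), and without 6 dpi replicate 2, the library with the high mesothelial sum, 0.96 (0.16). Its time-course p rose to 0.06 to 0.076 without the 5 dpi library or without replicate 2 or 3 of 2 dpi, 1 or 2 of 4 dpi, or 1 or 2 of 6 dpi. The mural markers were highest in the 5 dpi library, at 209 CPM with 6 of 6 genes detected, and their part in the low *Prelp* and *Podn* values there was not tested.

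In the order of day means, the days nearest each other overlapped in most genes. The place of 5 dpi and any gap beside it rest on 1 library. How often such gaps occur over all genes was not counted. For *Fmod* the order was 6, 5, 4, 1, 2 and 3 dpi, and the neighbours from 6 down to 1 dpi did not overlap. For *Lum* it was 4, 2, 6, 1, 5 and 3 dpi and for *Ogn* 4, 6, 2, 5, 1 and 3 dpi. *Lum* had a gap without overlap between 1 and 5 dpi (1.27), and *Ogn* one between 1 and 3 dpi (1.43). For *Aspn* the order was 4, 6, 5, 2, 3 and 1 dpi, with a gap between 2 and 3 dpi (1.26). For *Bgn* it was 6, 4, 5, 2, 3 and 1 dpi, with gaps between 6 and 4 dpi (0.36), 5 and 2 dpi (0.34) and 2 and 3 dpi (0.46). *Prelp* was ordered 6, 2, 1, 4, 3 and 5 dpi, with a gap between 3 and 5 dpi (0.73), and *Podn* 2, 6, 3, 4, 1 and 5 dpi, with a gap between 1 and 5 dpi (1.04). *Dcn* was ordered 2, 1, 3, 4, 6 and 5 dpi, with its only gap between 2 and 1 dpi (0.54), and *Omd* 2, 4, 6, 1, 5 and 3 dpi, with its only gap between 5 and 3 dpi (0.85). The lowest day mean thus fell at 3 dpi in *Lum*, *Fmod*, *Ogn* and *Omd*, and at 1 dpi in *Bgn* and *Aspn*. In *Dcn*, *Prelp* and *Podn* the lowest value was that of the single 5 dpi library.

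Pairs of SLRP genes were compared over the 17 libraries as a description, since the libraries share days and depth. *Lum* and *Ogn*, on different chromosomes, had the highest Pearson correlation of log2 CPM, with r = 0.93 (Spearman's rho 0.91), and r = 0.94 after subtraction of the day means in the 16 libraries of days with replicates. *Omd* followed *Lum* at r = 0.83 and *Ogn* at 0.81, which within days were 0.67 and 0.67. *Aspn* and *Ogn* were at 0.79, and 0.77 within days. *Prelp* and *Podn* were at 0.72, and 0.63 within days. *Bgn* and *Fmod* were at 0.78 over all libraries but at -0.15 within days. The neighbours *Dcn* and *Lum*, 46984 bases apart on chromosome 10, were at 0.44, and 0.61 within days. *Fmod* and *Prelp*, 115839 bases apart on chromosome 1 on opposite strands, were at 0.51, and 0.52 within days. The neighbours *Aspn* and *Omd* were at 0.55, and 0.29 within days.

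**Figure D3:**
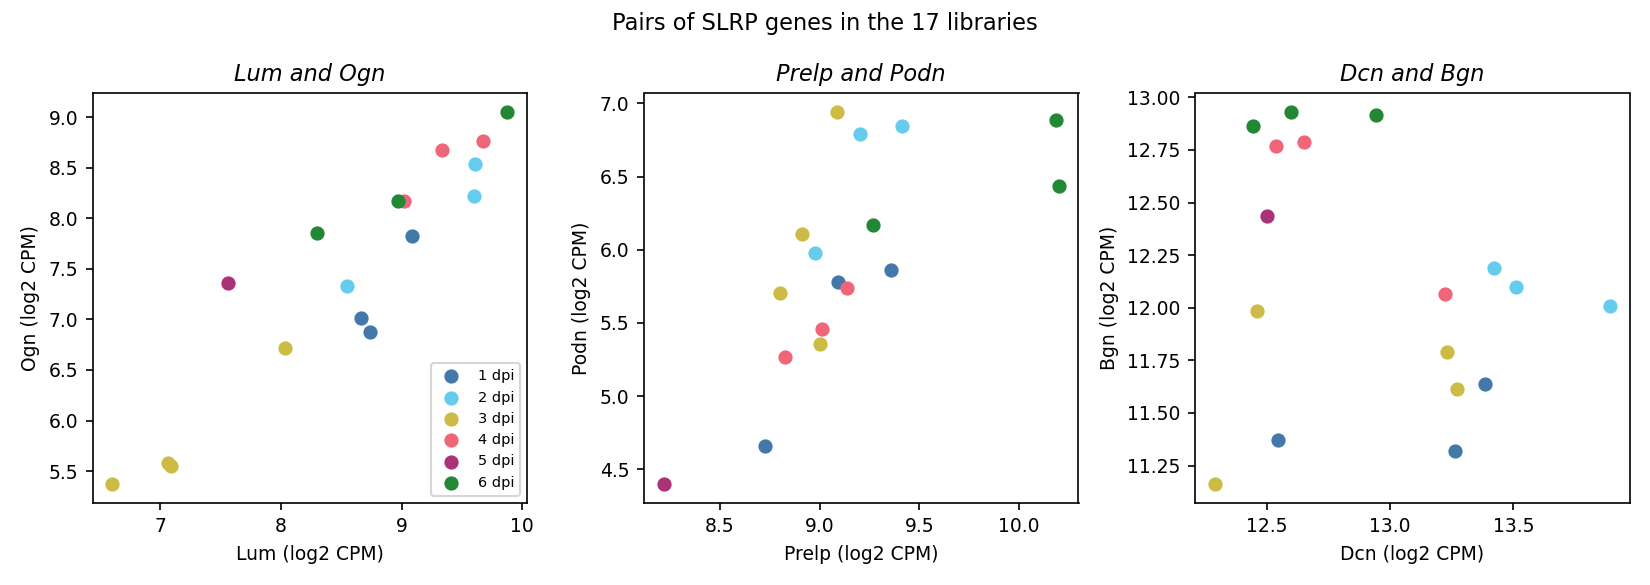
Log2 CPM of 3 pairs of SLRP genes, 1 point per library coloured by day (1 to 6 dpi). The 17 points of *Lum* and *Ogn* lie along a line with the 4 libraries of 3 dpi at its lower end, those of *Prelp* and *Podn* scatter more widely with the 5 dpi library lowest on both axes, and those of *Dcn* and *Bgn* show no common direction.

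Among 8910 genes with a mean of at least 100 counts, the genes most like each SLRP gene over the 17 libraries were taken by Pearson's r. This is a description, since genes were picked for a high r, differences between days enter it, and no within-day value was computed. For *Fmod* these were *Rflnb* (0.96) and *1500015O10Rik* (0.95), and for *Prelp* *Nsmf* (0.94) and *Ltbp4* (0.93), the latter a binding protein of latent TGF-β. For *Lum* they were *Pkia* (0.92) and *Arfip1* (0.91), and for *Bgn* *Vamp5* (0.91) and *Prrx2* (0.91). *Ogn* and *Omd* shared *Pls3* (0.89 and 0.87), beside *Hba-a2* (0.88), a haemoglobin gene of red blood cells, for *Ogn* and *Mapk8* (0.88) for *Omd*. *Dcn* was nearest to *Scd1* (0.91) and *Ifngr1* (0.88), *Aspn* to *Oxct1* (0.87) and *Kctd12* (0.85), and *Podn* to *Tpst1* (0.88) and *Crispld2* (0.86).

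**Figure D4:**
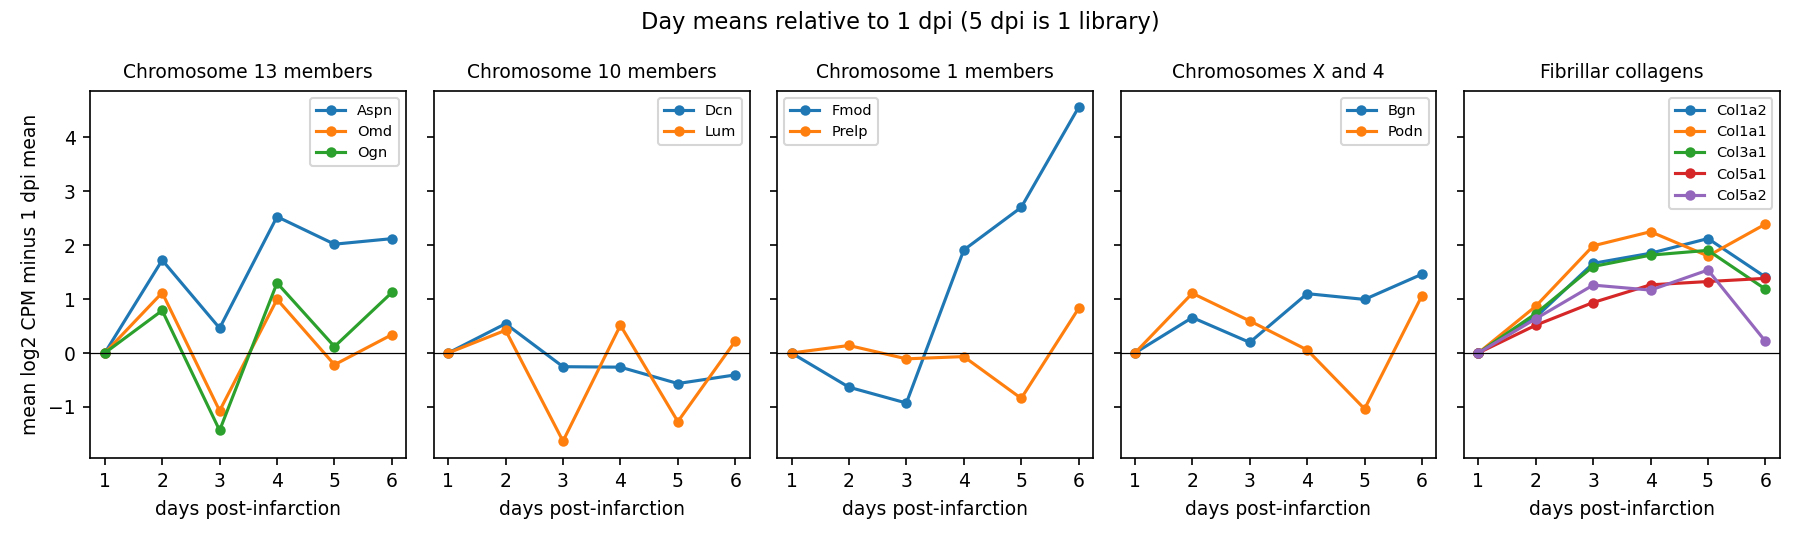
Day means of log2 CPM minus the 1 dpi mean, by day post-infarction, for the SLRP genes grouped by chromosome and for 5 fibrillar collagen genes. *Aspn*, *Omd* and *Ogn* each have a lower mean at 3 dpi than at 2 and 4 dpi, *Dcn* and *Lum* part at 3 dpi, *Fmod* and *Prelp* differ throughout, and the collagens are above their 1 dpi mean on every later day.

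The fibrillar collagens that SLRPs bind were higher in the window of 3 to 5 dpi, at which *Lum* was lower. All 5 collagen genes passed in the window against 1 and 2 dpi, where 7.48% of all genes did (*Col1a1* 1.64, SE 0.27, adjusted p = 0.00061, edgeR) with a median of 1.41. From 1 to 6 dpi 4 of 5 were higher, against 12.1% of all genes called, *Col1a2* by 1.41 (SE 0.31, adjusted p = 0.0058) and *Col3a1* by 1.29 (SE 0.31, adjusted p = 0.011). From 2 to 3 dpi, the step at which *Lum* and *Ogn* fell, 0 of 5 passed against 2.94% of all genes, and the median fold change was 0.88. At this step 3 of the 5 had an unadjusted p under 0.05, and DESeq2 called 3, beside 1042 of all genes. The collagen I promoter drives the reporter used for sorting, and its part in these values was not tested.

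The enzymes that build the chains of SLRPs passed over the time course in shares to be read against the 15.0% of all genes. Of 13 tested chondroitin and dermatan sulfate enzymes, 3 passed over the time course and 3 from 1 to 6 dpi, where 12.1% of all genes did. *Chpf*, a chain-polymerizing factor, was higher at 6 than at 1 dpi (1.43, SE 0.28, adjusted p = 0.0025, edgeR) and at 4 than at 3 dpi (1.02, SE 0.25, adjusted p = 0.034). *Csgalnact1*, which starts the chain, was lower at 6 than at 1 dpi (-2.06, SE 0.31, adjusted p = 0.00033), as was the sulfotransferase *Chst11* (-1.33, SE 0.32, adjusted p = 0.011). Of 7 linker enzymes 1 passed over the time course, *Pxylp1*, a xylose phosphatase, which rose by 1.66 from 2 to 3 dpi (SE 0.28, adjusted p = 0.0039) and was lower at 6 dpi than in the window (-1.32, adjusted p = 0.0048). Of 6 keratan sulfate enzymes 1 passed, the sulfotransferase *Chst2*, higher in the window than before it (0.94, SE 0.25, adjusted p = 0.025) and lower at 6 dpi than in the window (-1.16, adjusted p = 0.026). Of 7 genes for sugar and sulfate donors 1 passed, *Ugdh*, which makes UDP-glucuronate and was lower at 6 than at 1 dpi (-1.07, SE 0.24, adjusted p = 0.0072).

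Partners of SLRPs were counted in the same way. Of 8 genes for ligands, 3 passed over the time course, where 15.0% of all genes did. All 3 were higher in the window than at 1 and 2 dpi, where 7.48% of all genes were called. These were *Tgfb3* (1.26, SE 0.16, adjusted p = 2.6e-05, edgeR), *Ccn4* (2.15, SE 0.28, adjusted p = 5.3e-05) and *C1qa* (4.32, SE 0.81, adjusted p = 0.0018). *C1qa* encodes a complement subunit made mainly by macrophages. Its day mean was highest at 5 dpi (3.51, 1 library) and next at 3 dpi (2.60, SD 3.37 between 4 libraries), the days with the highest leukocyte sums. The 1 dpi mean of *C1qa* lay near the floor, so the size of its fold changes is uncertain. From 1 dpi (-1.78) to 6 dpi (1.35) *C1qa* did not pass (3.07, SE 1.17, adjusted p = 0.092, edgeR). The part of leukocytes in its levels was not tested. Of 9 genes for receptors 2 passed over the time course, again beside 15.0% of all genes. *Cd14*, a co-receptor of Toll-like receptors, rose by 1.80 from 2 to 3 dpi (SE 0.34, adjusted p = 0.0072) and fell by 1.87 from 3 to 4 dpi (SE 0.34, adjusted p = 0.0061). Monocytes and macrophages express *Cd14*, the leukocyte list was also higher at 3 dpi than at 2 and 4 dpi, and its part in these changes was not tested. *Tlr4* was lower in the window than at 1 and 2 dpi (-0.67, SE 0.20, adjusted p = 0.047). Over the time course, DESeq2 called 3757 of all genes. Of 4 tested processing proteinases and their enhancers, 0 passed over the time course by edgeR. Of these 4, 2 had an unadjusted p under 0.05 and DESeq2 called 2. Of these, *Bmp1*, a procollagen proteinase that also trims the propeptide of biglycan, was higher at 6 than at 1 dpi (1.51, SE 0.41, adjusted p = 0.022). Among 7 other tested SLRP genes, 0 passed over the time course by edgeR, with 3 at an unadjusted p under 0.05 and 2 called by DESeq2, and 1, *Chadl*, was higher at 6 dpi than in the window (1.16, SE 0.32, adjusted p = 0.024), where 11.5% of all genes were called.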

How the data were processed

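The 17 libraries of sorted CFs were made by bulk MARS-seq, a protocol that reads the 3′ ends of polyadenylated RNA. The authors aligned reads to mm10 with STAR, after bcl2fastq (1.2.4), and assigned them to genes with featureCounts and an Ensembl annotation of GRCm38. The deposited values are counts, raw and without normalization. Handling of PCR duplicates and the strand setting are not given in the sources used here. The paper's methods call the samples of a population biological replicates, and which mouse gave which library is not given in the sources used here. Counts in 18 pairs of libraries of a day differed by more than counting noise (chi-square per degree of freedom 21.8 to 213).

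Counts were tested with edgeR (4.0.16) in R (4.3.3) by the quasi-likelihood F-test after TMM, with day as a factor of 6 levels over all 17 libraries and no block, on the 14030 genes that reached 10 counts in 3 or more libraries, which included all 9 SLRP genes. p-values were adjusted by Benjamini-Hochberg over all genes tested, with a threshold of 0.05. The standard error is the fold change divided by the square root of F. Floors cover counting error only. The 5 dpi library carries replicate number 3 in its title and another number in its description. Positions are from GENCODE vM21. Alternatives were DESeq2 (1.42.0), other scalings, filters and spreads, a replicate block, only the days compared, and leaving out the 3 dpi, the 5 dpi or single libraries. Every SLRP gene was named, list genes were the up to 4 with the smallest time-course p, and the 2 most alike genes were named for each. The SLRP genes, lists and comparisons were chosen with earlier results of these data known. The test was also run on simulated data, but the outcome is not reported here and no result above rests on it.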

Additional observations from a re-analysis of the deposited data

Results flagged for a closer look

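At 3 dpi, the only day with more than 3 libraries, the gap of the highest library to the next, divided by the whole range of the day, was above Dixon's critical value for 4 libraries in *Fmod* (0.838) and *Ogn* (0.843). In both, replicate 3 was the high library, at 3.42 for *Fmod* and 6.72 for *Ogn*, against at most 2.39 and 5.58 in the other 3. The 9 SLRP genes were tested, and chance sets apart about 1 in 20 such groups. Without this library *Ogn* and *Fmod* passed from 3 to 4 dpi.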

How the results depend on the processing

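The number of SLRP genes called kept within 1.5 times its value under the alternatives, save for these. From 1 to 2 dpi, where 0 passed, DESeq2, the replicate block and the fit of only the days compared called 1 (*Aspn*), and the test of every gene with a count called 2. From 4 to 6 dpi, where 1 passed, DESeq2 and every gene with a count gave 2. In the window against 1 and 2 dpi, 2 became 4 with every gene with a count and 0 without the 5 dpi library. At 6 dpi against the window, 5 became 3 with only the days compared and 3 without the 3 dpi libraries. With 1 library left out, 5 to 8 were called over the time course and 0 at 2 against 1 dpi. At 3 against 2 dpi 1 to 3 were called (1 without 2 dpi replicate 2), and 4 or 5 at 4 against 3 dpi. At 6 dpi, 0 to 2 were called against 4 dpi (0 without 4 dpi replicate 1 or 2), 3 to 6 against 1 dpi and 2 to 6 against the window (2 without 6 dpi replicate 1), and the window gave 1 to 3 against 1 and 2 dpi.

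Without the 3 dpi libraries, the sign turned for *Ogn* in the window against 1 and 2 dpi (0.22) and, at 6 dpi against the window, for *Dcn* (0.018) and *Aspn* (-0.068). Differences that turned sign with 1 library left out were not called, and ranged from -0.024 to 0.28 for *Prelp* at 2 against 1 dpi. At 4 against 3 dpi they ranged from -0.29 to 0.12 for *Dcn* and -0.044 to 0.12 for *Prelp*. From 4 to 6 dpi they ranged from -0.31 to 0.10 for *Dcn*, -0.69 to 0.13 for *Lum*, -0.74 to 0.057 for *Aspn*, -0.53 to 0.12 for *Ogn* and -1.52 to 0.27 for *Omd*. From 1 to 6 dpi they ranged from -0.17 to 0.65 for *Lum* and -0.56 to 1.23 for *Omd*, and at 6 dpi against the window from -0.22 to 0.042 for *Dcn* and -0.48 to 1.31 for *Omd*. The cause was not tested.

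No pairing of libraries by replicate number was seen in their deviations from the day means, which cannot show that none exists. These deviations correlated at a mean of 0.011 (-0.11 to 0.20) in 30 pairs with the same number. In 72 other pairs the mean was -0.005 (-0.26 to 0.15). With the replicate block 6 SLRP genes passed over the time course (1494 of all genes), 1 at 2 against 1 dpi (21) and 2 at 3 against 2 dpi (174). At 6 against 1 dpi 5 passed, without *Prelp* (adjusted p 0.064) and with *Ogn* (1.14, 0.016) and *Podn* (1.07, 0.025). Over all genes, with 1 library left out and under the other alternatives, the 2099 calls of the time course became 1307 to 3466 and 1494 to 3757, the 25 at 2 against 1 dpi 13 to 32 and 10 to 153, and the 412 at 3 against 2 dpi 46 to 734 and 174 to 1042. The 380 at 4 against 3 dpi became 126 to 722 and 125 to 879, and the 72 at 6 against 4 dpi 3 to 1402 and 14 to 882. The 1700 at 6 against 1 dpi became 763 to 2577 and 1509 to 2427, the 1050 of the window 780 to 1601 and 767 to 1555, and the 1619 at 6 dpi against it 299 to 2937 and 779 to 2394. With the filter of 10 counts in every library, *Omd* was not tested. Counts of 9 to 61 at 3 dpi limit the precision of *Omd*.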
